A study of Homo sapiens with 2 samples.

Results

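The genes examined here are 41 genes of the NRF2 pathway and of antioxidant defence, chosen by name, of which 39 were measured among 19775 genes. A gene counted as measured where the array annotation gave a probe set to it alone, and AKR1B1 and FTH1 had no such probe set. RNA came from FaDu, a squamous carcinoma line of the pharynx, in which cells stably carrying a GLUT4 construct or the control vector had been selected with puromycin. Each population gave 1 Affymetrix U133 Plus array, so no difference below has a replicate check or a test, and anything else that set both populations apart cannot be told apart from GLUT4. None of the sources used here names the promoter that drives the construct. Values are the deposited linear intensities in arbitrary units. The methods name a normalization in GeneSpring, and how it entered these values is not given. Each difference is log2 of the GLUT4 array minus log2 of the vector array, and each gene is given by its brightest probe set unless another is named.

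NRF2, encoded by NFE2L2, is a transcription factor that cells keep scarce by constant breakdown, since KEAP1 hands it to a ubiquitin ligase. Oxidants and electrophiles modify KEAP1, and NRF2 then accumulates, pairs with small MAF proteins and binds antioxidant response elements in its target genes. Those targets make glutathione and thioredoxin, reduce quinones and aldehydes, and supply NADPH. Because NRF2 is governed mostly at the protein level, the amount of its mRNA is not a measure of its activity, whereas the mRNAs of its targets are the usual readout. In squamous carcinomas the pathway is often switched on by mutations of either gene, and its state in these cells was not determined here.

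Between vector control and GLUT4-overexpressing FaDu cells the antioxidant genes differed about as much as all genes did. The median size of the difference, sign ignored, was 0.118 over these genes and 0.137 over all genes. Of the 39 measured genes, 0 were more than 1.5-fold higher with GLUT4, beside 1.84% of all genes, and 1, the secreted glutathione peroxidase GPX3, was more than 1.5-fold lower, beside 1.55% of all genes. At those shares 39 genes would hold 0.718 higher and 0.603 lower, so the counts lay near the background. The median difference of the 39 genes was 0.002 and that of all genes was -0.015. Of the 39, 20 lay above 0 and 19 below, beside 9453 and 10321 of all 19775 genes. Among the same 39, 25 differed by less than 0.2, which is 64.1% beside 66.5% of all genes. The standard deviation of the differences was 0.22 over these genes and 0.26 over all genes.

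The single gene past the threshold had low signal. The median intensity of all probe sets was 39.6, and of the 32 members brighter than that, 0 passed 1.5-fold upward and 0 downward, beside 2.41% and 2.0% of the 12935 genes as bright. The differences of these 32 genes ran from -0.48 for SQSTM1 to 0.35 for CAT. The 39 genes had 78 probe sets, of which 0 passed 1.5-fold upward and 1 passed it downward, beside 1.96% and 1.38% of the 41097 probe sets naming 1 gene. The only measure of technical error was the spread between the brightest pair of probe sets of a gene. Over 10523 genes that pair gave a standard deviation of 0.20 for a single probe set, and 0.12 where both read above 500. SQSTM1 and CAT, the ends of the range above, differed by more than either value. Such a spread does not cover variation between cultures, nor errors of labelling or of an array that both probe sets share.

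**Figure D1:**
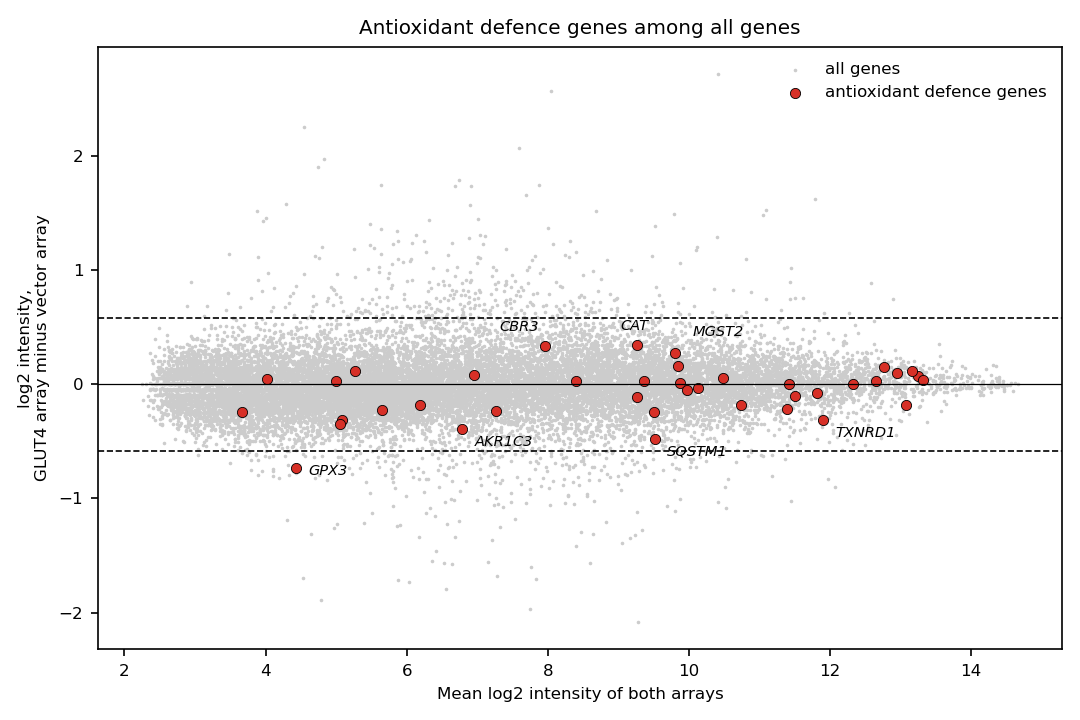
The vertical axis gives the log2 difference between the arrays and the horizontal axis the mean of their log2 intensities, with all genes in grey, the 39 antioxidant defence genes in red and dashed lines at 1.5-fold. The red point below the lower line is GPX3, at low signal, and no red point lies above the upper line.

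The labels of the arrays and the makeup of the cultures were looked at first. SLC2A4, the gene of GLUT4, read 28.3 with the vector and 32.6 with GLUT4, a difference of 0.20, and whether its probe set covers the construct was not determined here. Of 9 epithelial markers KRT6A, KRT17 and TP63 were not measured. The 6 that were measured all lay above the median intensity, with KRT5 at 11024 and 13093. KRT14 was 2.03-fold higher and EPCAM 1.77-fold lower with GLUT4. CDH1 was 1.45-fold lower, at 3223 and 2224, while SFN differed by -0.003 and DSG3 by 0.11. Of 5 fibroblast markers 2 were more than 1.5-fold higher, DCN from 482 to 1050 and LUM from 38.5 to 79.9. COL1A1 stood at 224 and 226, COL1A2 at 31.6 and 35.4 and PDGFRB at 43.1 and 49.3. The summed intensity of the 5 went from 819 to 1441, most of it DCN on both arrays. Of 4 endothelial markers 1 was lower, PECAM1 from 141 to 48.2, and 3 stayed within 1.5-fold, with a sum over all 4 of 208 and 120. Of 5 blood cell markers none passed 1.5-fold, with a sum of 178 and 171. No marker was at 0, since the lowest intensity in the table was 4.15. The part of these shifts in the values below was not tested.

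Antioxidant response elements share the core letters TGACNNNGC. These were searched on both strands in the RefSeq promoter windows (GRCh38.p14), which hold 250 bases before and 50 after each annotated start. Of the 41 genes 31 had a window, and 9 of these, or 29.0%, held the letters, beside 16.1% of 27305 genes and 13.3% of 35116 windows. FTH1, HMOX1, SOD1, GSR, PRDX6, AKR1B10, PRDX1, MGST2, CBR3 and ALDH3A1 had none in the table. The stretches below are shown because they place the letters ahead of genes of 7 of the 10 roles described here, the regulator KEAP1 among them. GSTA4 and MGST1 also held the letters, but only close to the start or past it, and are not shown. Further matches in ME1 and TXNRD1 so placed, and another in KEAP1, 54 bases before the start, are not shown either. Each line is the gene's own strand, 5′ to 3′, with the match in capitals, so that a match on the opposite strand reads GCNNNGTCA.

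ME1 (chr6:83431160-83431208, minus strand, 137 bases before the start): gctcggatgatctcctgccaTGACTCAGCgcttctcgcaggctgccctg
TXNRD1 (chr12:104215660-104215708, plus strand, 99 bases before the start): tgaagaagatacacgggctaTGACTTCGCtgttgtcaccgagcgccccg
TXNRD1 (chr12:104286910-104286958, plus strand, 102 bases before a different start): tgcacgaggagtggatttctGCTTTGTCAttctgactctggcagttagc
KEAP1 (chr19:10502774-10502822, minus strand, 31 bases before the start): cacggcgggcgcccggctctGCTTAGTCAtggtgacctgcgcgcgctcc
GCLM (chr1:93909436-93909484, minus strand, 34 bases before the start): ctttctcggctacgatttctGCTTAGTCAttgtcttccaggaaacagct
GSTP1 (chr11:67583726-67583774, plus strand, 66 bases before the start): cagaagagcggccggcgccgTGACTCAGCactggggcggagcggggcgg
GPX2 (chr14:64942839-64942887, minus strand, 122 bases before the start): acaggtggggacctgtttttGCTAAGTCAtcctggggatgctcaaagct
CBR1 (chr21:36069845-36069893, plus strand, 159 bases before the start): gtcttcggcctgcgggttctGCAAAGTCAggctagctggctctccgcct

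The form TGACTCAGC, which ME1 and GSTP1 share, also holds TGACTCA, the site of AP-1 factors, and stood in 0.561% of all windows. The 9 genes with the core letters had a median difference of 0.02, with 5 above 0 and 4 below. The 21 measured genes whose windows lacked them had a median of -0.08, with 8 above 0 and 13 below. Over all 19775 genes 9453 lay above 0 and 10321 below. GPX2 and MGST1 among the 9, and GPX3 and SOD3 among the 21, had mean signals under the median intensity. Whether the letters bear on the differences was not tested. A match is a run of letters and not a bound site, and a window without one says nothing of elements farther away.

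The regulators came first. NFE2L2 read 3690 in vector control cells and 3503 in GLUT4-overexpressing cells, a difference of -0.08, and its other probe sets gave -0.07 and 0.05. KEAP1, the adaptor that presents NRF2 for breakdown, read 641 and 591, a difference of -0.12. Both differences were below the spread of single probe sets of 0.20, and that of KEAP1 nearly reached the 0.12 found above 500. SQSTM1 encodes p62, a receptor of selective autophagy that binds KEAP1 and is itself an NRF2 target. It read 864 and 620 on its brightest probe set, 1.39-fold lower at -0.48. Its other probe sets did not agree in direction, at 0.06, -0.10, -0.32 and 0.45 in order of signal, and the mean over all 5 was -0.08.

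None of the 3 genes that make and recycle glutathione passed 1.5-fold. GCLC, the catalytic subunit of the rate-limiting enzyme of glutathione synthesis, read 873 in vector control cells and 977 with GLUT4 on its brightest probe set (0.16) and 713 and 722 on the next (0.02). GCLM, the modifier subunit of the same enzyme, read 1399 and 1457 (0.06), and its other probe sets gave -0.01 and 0.19. GSR, which regenerates reduced glutathione with NADPH, read 652 and 666 (0.03). On their brightest probe sets the 3 genes had a median of 0.06, and none differed by 0.2.

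The glutathione peroxidases use glutathione to reduce peroxides. GPX1, the cytosolic enzyme, read 9198 and 8103, a difference of -0.18, and GPX4, which protects membrane lipids and restrains ferroptosis, read 5139 and 5146, a difference of 0.002. GPX3, the plasma form, read 27.8 in vector control cells and 16.7 with GLUT4, 1.67-fold lower at -0.74, with both values under the median intensity. Its second probe set read 11.3 and 9.54, exactly the values that 2 probe sets not annotated to GPX3 also carried. The mean of its probe sets was -0.49 and the difference with an offset of 32 was -0.30, both within 1.5-fold. GPX2, the gastrointestinal form, read 16.0 and 16.5 (0.05), and its other probe set gave -0.16, both under the median intensity.

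The glutathione transferases attach glutathione to electrophiles. GSTP1, the main cytosolic form in squamous epithelium, read 7653 and 8202 (0.10), GSTM3 read 938 and 944 (0.01) on its brightest probe set and 40.8 and 33.0 (-0.31) on the other, and GSTA4, which takes up the lipid peroxidation product hydroxynonenal, read 121 and 128 (0.08). Of the membrane-bound forms, MGST2 read 815 in vector control cells and 988 with GLUT4, 1.21-fold higher at 0.28 on its single probe set. MGST3 was level at 2743 and 2754 (0.01), and MGST1 stayed at 14.4 or below on all 5 of its probe sets. Of these 6 genes 5 lay above 0, beside 9453 of all 19775 genes, with a median of 0.04. With quantile normalization 2 of the 6 lay below 0, and with loess 3.

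The thioredoxin system carries reducing power from NADPH to proteins and peroxiredoxins. TXN, thioredoxin itself, read 9443 and 9913 (0.07), and the peroxiredoxins PRDX1 and PRDX6 read 10095 and 10340 (0.03) and 8806 and 9529 (0.11). SRXN1, the sulfiredoxin that repairs overoxidized peroxiredoxins and a well-known NRF2 target, read 1126 and 1103 (-0.03). TXNRD1, the reductase that recharges thioredoxin, was at 4274 in vector control cells and 3441 with GLUT4, 1.24-fold lower at -0.31. Its other probe set was near the lowest intensity of the table, at 5.83 and 6.02.

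Superoxide dismutases turn superoxide into hydrogen peroxide, which catalase breaks down. CAT read 543 in vector control cells and 690 with GLUT4, 1.27-fold higher at 0.35, the largest difference upward among the 39 genes on their brightest probe sets. Its second probe set agreed, at 124 and 160 (0.37), and the remaining one was dim, at 8.95 and 7.93. SOD1, the cytosolic form, read 6622 and 7344 (0.15), and SOD3, the secreted form, 37.0 and 40.2 (0.12). SOD2, the mitochondrial form, was at 793 and 669 (-0.24) on the single probe set that names it alone. Probe sets that name it together with SOD2-OT1 were left out here. In order of signal they gave -0.15, -0.07, 0.03 and 1.25, and all but the dimmest were brighter than the one used.

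None of the 7 measured reductases of quinones and carbonyls passed 1.5-fold. NQO1, the quinone reductase most used as a marker of NRF2 activity, was lower with GLUT4 on all 3 probe sets. It read 3006 and 2806 (-0.10) on the brightest, 1863 and 1500 (-0.31) on the next and 1215 and 1059 (-0.20) on the dimmest. Of the aldo-keto reductases, which convert steroids and aldehydes, AKR1C3 read 127 and 96.6, 1.31-fold lower at -0.39. AKR1C1 read 166 and 142 (-0.23) and 98.5 and 84.5 (-0.22) on its brighter probe sets, and -0.01 to 0.07 on its dim ones. AKR1C2 read 77.5 and 68.3 (-0.18) and 80.1 and 57.5 (-0.48), while its dimmest probe set held the same values as 4 probe sets not annotated to it. The transcripts of AKR1C1, AKR1C2 and AKR1C3 are related in sequence. The brighter AKR1C1 and AKR1C2 probe sets have names that end in x_at, a type that can detect related transcripts. Their values are thus uncertain for either gene alone. AKR1B10 was dim at 37.8 and 30.4 (-0.31). CBR3, a carbonyl reductase, went the other way, from 221 to 279, 1.26-fold higher at 0.34, and its relative CBR1 was level at 335 and 341 (0.02). Of the 7 genes 5 lay below 0, or 71.4% beside 52.2% of all genes, with a median of -0.18, and 3 of the 5 are the AKR1C genes.

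None of the NRF2 targets ME1, UGDH, OSGIN1, ALDH3A1, ALDH3A2, HMOX1 and FTL passed 1.5-fold. ME1, malic enzyme, which makes cytosolic NADPH, read 2891 and 2492 (-0.21) on its brightest probe set and 2037 and 1663 (-0.29) on the next. UGDH, which makes the sugar acid for glucuronidation, read 1821 and 1607 (-0.18), and OSGIN1, an oxidative stress-induced growth inhibitor, 54.2 and 46.4 (-0.22). ALDH3A1, an aldehyde dehydrogenase, was dim at 37.4 and 29.4 (-0.35), and ALDH3A2, which clears fatty aldehydes, gave -0.05, 0.23 and -0.10 on its 3 probe sets, with a mean of 0.03. HMOX1, heme oxygenase, the classical stress-induced target, was dim and level at 31.5 and 32.2 (0.03). FTL, the ferritin light chain that stores iron, read 6335 and 6478 (0.03).

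**Figure D2:**
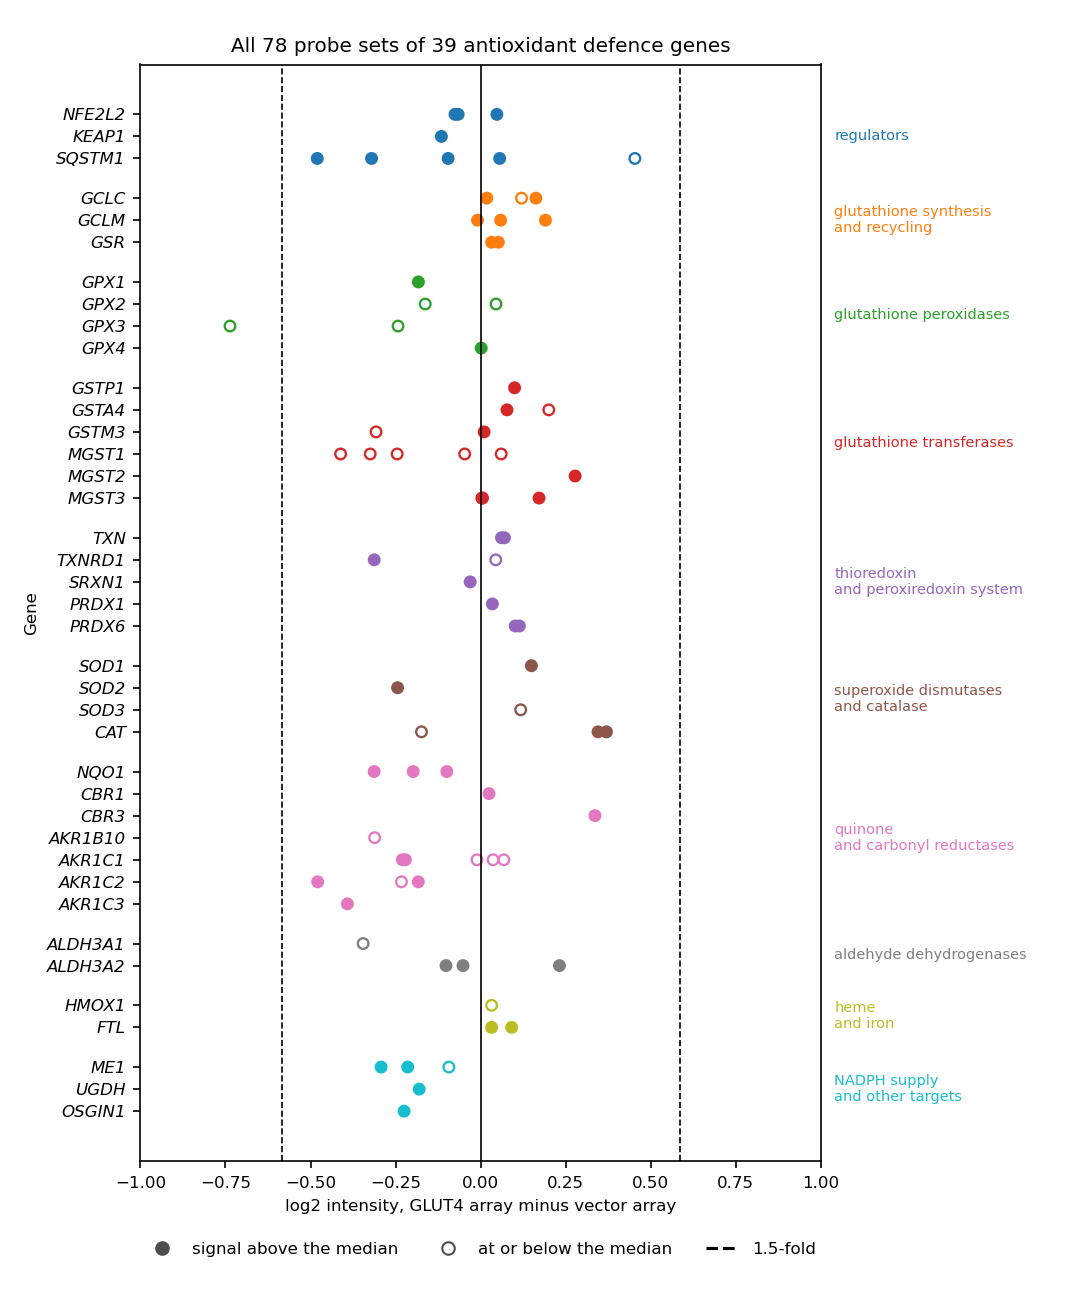
Every probe set of the 39 genes is a point at its difference between the arrays (log2, horizontal axis), grouped by role, filled where its signal was above the median of all probe sets and open where it was not. Only an open point of GPX3 lies past a dashed line (1.5-fold), and the filled points of NQO1, ME1 and AKR1C2 lie left of 0 while those of CAT lie right of it.

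Agreement between probe sets varied by gene. Of 15 genes with more than 1 probe set above the median intensity, all such probe sets lay below 0 in 4, AKR1C1, AKR1C2, ME1 and NQO1. They lay above 0 in 7, CAT, FTL, GCLC, GSR, MGST3, PRDX6 and TXN, and on both sides of 0 in 4, ALDH3A2, GCLM, NFE2L2 and SQSTM1. The same counts were not made over all genes, so whether such agreement is unusual is not known. Probe sets of a gene on the same array share its RNA and labelling, so they are not replicates.

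Of 68 further genes of the pathway in 6 lists, 63 were measured. Among these 1 was more than 1.5-fold higher and 0 were lower, near the 1.84% and 1.55% of all genes, and their median was -0.02. BLVRB, a biliverdin and flavin reductase, was that gene, from 258 to 413, 1.60-fold higher at 0.68 on its single probe set. It belonged to 15 measured NRF2-induced genes with a median of -0.04, among them the cystine transporter SLC7A11 at 2180 and 1866 (-0.22, though the mean of its 3 probe sets was 0.10), the pentose phosphate enzymes PGD at -0.14 and TALDO1 at 0.24, and the redox sensor PIR at -0.02. The 9 partners and competitors of NRF2 had a median of -0.04. Among them MAFF, a small MAF partner, read 2254 and 3193, 1.42-fold higher at 0.50, BACH1, which represses the same elements, read 1072 and 1012 (-0.08), and NFE2L1, a related factor, read 746 and 604 (-0.31).

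The remaining lists held no gene past 1.5-fold. The 14 other glutathione genes had a median of -0.04, with GSTK1, a mitochondrial and peroxisomal transferase, highest at 530 and 734 (0.47). The 9 other thioredoxin and peroxiredoxin genes had a median of 0.08, which turned to -0.02 with the mean of all probe sets, with the stress-induced SESN1 highest at 139 and 188 (0.44) and TXNIP, the inhibitor of thioredoxin, at 4467 and 4073 (-0.13). The 8 metallothioneins, which bind metals and scavenge oxidants, had a median of 0.03 and share much of their sequence, so their probe sets may not tell them apart. MT2A read 25995 on both arrays, which was the highest intensity of each, so it is not known whether its difference of 0 is one of level. MT1X was close to it at 24976 and 25187, and MT1E, MT1F, MT1G and MT1H read from 17344 to 21420. Whether signals so high still follow the level was not determined for these either. The 8 NADPH oxidases and other oxidant sources had a median of -0.14. Of these XDH, xanthine dehydrogenase, read 2287 and 1539, 1.49-fold lower at -0.57, just within the threshold, and passed it at -0.60 with quantile normalization and -0.59 with loess. In the same list the oxidase subunit CYBA read 4659 and 4756 (0.03).

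**Figure D3:**
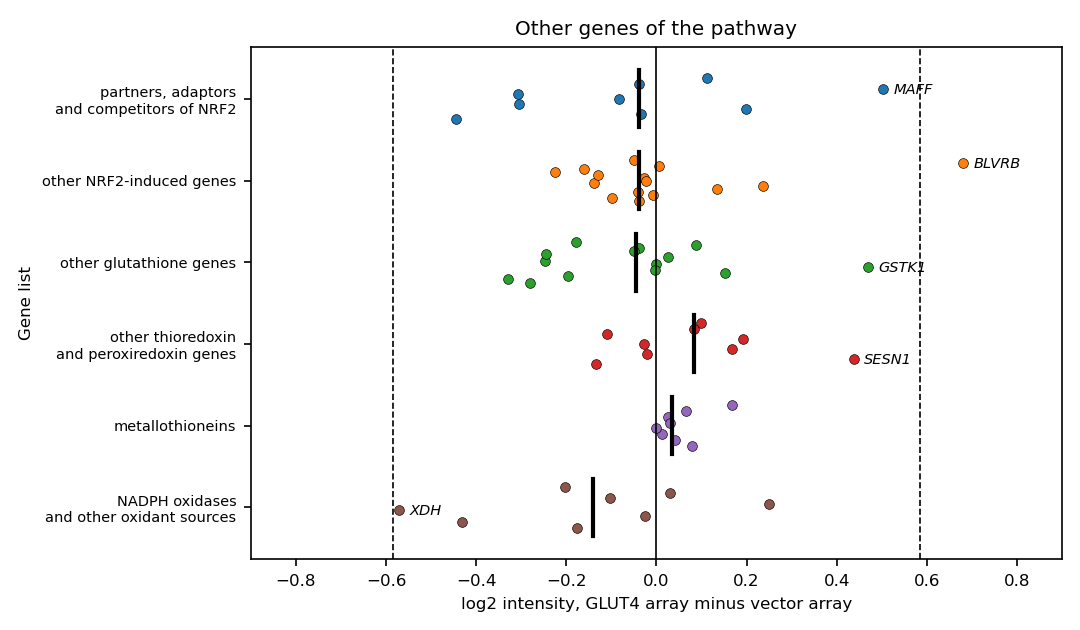
Each point is a gene of 6 further lists at its difference between the arrays (log2, horizontal axis), with black bars at the list medians and dashed lines at 1.5-fold. BLVRB lies past the upper line, XDH lies next to the lower line, and the medians run from -0.14 to 0.08.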

How the data were processed

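Total RNA of both FaDu populations was hybridized, with 1 array per group. Per the methods the authors normalized with GeneSpring, and MAS5 is named, with no version, in the notes on processing that the submitters gave. None of the sources used here says how these steps were joined. The deposited values are intensities on a linear scale with array medians of 39.7 (vector) and 39.1 (GLUT4).

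A floor of 1 was set, log2 was taken, and differences were formed as GLUT4 minus vector. Of 54675 probe sets 41097 named 1 gene in the array annotation, 1801 named several and 11777 are unnamed here. Probe sets naming several genes were not used, and a gene took the value of the probe set whose mean intensity was highest. The threshold of 1.5-fold is that of the methods. With 1 array per group no test was made, and precision is limited by that number. The counting was checked on simulated data, with changes well past the threshold and noise smaller than the spread of single probe sets. That checks the arithmetic only, and says nothing of how reliable the counts are in these data.

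The genes and lists were chosen with earlier results of these data known. Every measured member is named, and of the other lists those past 1.5-fold. Further genes of those lists were named after their values were seen. Alternatives were equal array medians, quantile normalization, loess (fraction 0.3), a filter at the median intensity, an offset of 32, leaving out probe sets ending in x_at or s_at, the mean of all probe sets and a threshold of 2-fold. Promoter sequences are from RefSeq. Python 3.11.15, numpy 2.4.6, pandas 2.3.3, statsmodels 0.14.6 and matplotlib 3.10.9 were used.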

Additional observations from a re-analysis of the deposited data

Results flagged for a closer look

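A probe set that the annotation gives to SOD2 together with the transcript SOD2-OT1 read 61.6 with the vector and 147 with GLUT4, a log2 difference of 1.25. It drew attention because it lies outside the genes compared, as it names more than 1 gene, and its signal on the GLUT4 array was above that on the vector array by more than 1.5-fold. The 3 brighter probe sets with the same annotation read 3931 and 3538 (-0.15), 3092 and 2945 (-0.07) and 2330 and 2386 (0.03). Which transcript each of them detects was not determined.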

How the results depend on the processing

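The count of 0 genes more than 1.5-fold higher was the same under all 8 alternatives. The count of 1 gene more than 1.5-fold lower, GPX3, was the same with equal array medians, quantile normalization and loess. It came to 0 with the offset of 32, the filter at the median intensity, the probe sets ending in x_at or s_at left out, the mean of all probe sets and the threshold of 2-fold. The filter and the leaving out of probe sets kept 32 genes each and removed the GPX3 probe set used. The median of the members ran from -0.03 to 0.03, and the signs of the medians of the 10 groups by role were the same with each scaling, the offset and averaged probe sets. Of the 6 other lists, 5 kept the sign of their median under these settings, and the thioredoxin and peroxiredoxin list went from 0.08 to -0.02 with averaged probe sets. SQSTM1 moved from -0.48 to -0.08 when its probe sets were averaged. Of the other lists, the oxidant sources held 1 gene past 1.5-fold, XDH, with quantile normalization and with loess in place of none. Over all genes, 364 higher and 306 lower became 205 and 168 with the offset, 268 and 186 with averaged probe sets, and 83 and 63 at 2-fold. No paired analysis was possible because each group had 1 array. Low signal limits GPX2, GPX3, MGST1, SOD3, AKR1B10, ALDH3A1 and HMOX1, whose main probe sets lay at or below the median intensity.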

Other observations

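Some probe sets carried exactly the same pair of values as another probe set, 2307 of 54675 in all, of which 359 were above the median intensity, and the median of their intensities on the vector array was 12.9. Of the probe sets of the antioxidant defence genes 3 were among them, a dim one each of GPX3, AKR1C2 and ME1, whose values also stood at 2, 4 and 6 other probe sets. Of the members, only the second probe set of GPX3, the third of AKR1C2 and the third of ME1 were touched, and none of these was the probe set used for its gene.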
